A study of Mus musculus with 22 samples.

Results

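Naive CD8+ T cells carrying the Tcaim knock-in (KI) were compared with naive CD8+ T cells of wild-type (wt) mice of the same line, using 6 of the 22 libraries of the series. The members were taken from the labels alone. KI naive libraries are those of line Tcaim KI Cd4Cre with genotype hocre and activation status naive (3 mice). Their wt counterparts are of that same line with genotype wtcre (3 mice). In each group 1 mouse came from each of experiments 1, 3 and 5, and a KI and a wt library of 1 experiment form a pair. The labels give male mice in experiments 1 and 3 and a female mouse in experiment 5, in both genotypes, and they state neither age nor strain. Both genotypes carry the Cd4Cre name, in which a Cd4 promoter drives Cre recombinase in developing T cells. The labels do not state where the knock-in cassette sits. The 24 h and 48 h libraries are of the same mice as the naive ones. Other groups used below are the KI and wt libraries after 24 h and 48 h on anti-CD3 and anti-CD28 antibodies, and the 2 naive libraries of line Tcaim KO Cd4Cre, genotype hocre, from female mice of experiments 1 and 5.

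Tcaim encodes a mitochondrial protein expressed in T cells, and the series title links it to contacts between mitochondria and endoplasmic reticulum. Type I interferons bind a receptor made of Ifnar1 and Ifnar2, whose kinases Jak1 and Tyk2 activate STAT factors, Stat2 among them. With Irf9 these form a complex that binds interferon-stimulated response elements, which hold repeated GAAA runs. The genes so induced restrict viruses, and in resting T cells they are kept at a low level by constant weak signalling.

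A count table of 46603 genes was used, of which 21183 passed the filter on low counts and were tested. Total counts were 62551905 to 74652488 in the 6 naive libraries. CPM are counts scaled to the library total after its adjustment by TMM scaling. The 10 CD8 T cell markers summed to 7583 to 7949 CPM in KI and 6567 to 8004 in wt. Cd8a was between 1183 and 1448 CPM in all 6 libraries. The 9 B cell markers summed to 1033 to 1386 CPM in KI and 1215 to 1608 in wt. Of the 9, 8 were lower in KI within each experiment (15.1% of all tested genes), with none called. The 6 markers listed for plasmacytoid dendritic cells, which are known for making type I interferon, summed to 288 to 330 CPM in KI and 262 to 282 in wt. That sum was led by Ccr9, also expressed by T cells, and by Bst2, which is itself in the effector list below. The defining marker Siglech was at 0.564 to 0.893 CPM in KI and 0.413 to 1.498 in wt. Neutrophil markers summed to 1.37 to 12.3 CPM in KI and 6.33 to 29.7 in wt, with Ly6g at 0 in 2 KI libraries and 1 wt library. Salivary gland and pancreas genes summed to 17.6 to 19.3 CPM in KI and 12.6 to 13.6 in wt. The part of these cells in the results was not tested. In bulk RNA, fewer cells of a type and less RNA per cell cannot be told apart.

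The knock-in was read out first. Tcaim (ENSMUSG00000046603, chromosome 9, 122805539 to 122836334, plus strand) was at 138, 145 and 141 CPM in the KI libraries of experiments 1, 3 and 5. It was at 15.2, 14.6 and 14.7 CPM in the wt libraries. Every KI library was far above every wt library, and the libraries within a genotype lay close together. The log2 fold change was 3.25 (SE 0.20, edgeR quasi-likelihood test with Benjamini-Hochberg adjustment, adjusted p = 3.28e-08). Of 35 tested genes within 1000 kb of Tcaim none was called, where 0.113% of all tested genes were called higher. In 2 of the 35 every KI library lay above every wt library, near the 6.56% of all genes.

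Besides Tcaim, 23 genes were called higher in KI naive cells and 0 lower, out of 21183 tested. These calls are of the fit of all 22 libraries, which leaves out the pairing by experiment. Called means an adjusted p under 0.05 in edgeR. The genes called higher made up 0.113% of those tested and the genes called lower 0%. At an unadjusted p under 0.05 edgeR gave 288 genes higher (1.36%) and 146 lower (0.689%). Together these are fewer than that threshold would give with no difference between genotypes, and the cause was not tested. The SE and adjusted p of this fit rest on a spread estimated over all 22 libraries, activated ones included. They do not measure the spread of the naive libraries alone. DESeq2 called 58, of which 3 were lower. In each of the 24 called genes every KI library lay above every wt library, which held for 6.56% of all tested genes. The reverse order held for 4.04%. Of the 24, 17 stand in an interferon list or the list of MHC class I presentation. Of these, 14 are interferon-stimulated effectors, 2 are sensors listed in the interferon pathway, and 1 is a guanylate-binding protein. The genes in no list, Tcaim aside, were Gm44148, Trafd1, Gm42917, Zfp365, Spats2 and Rnf213. The 7 called genes with the weakest support, Rnf213, Tlr7, Mx2, Rsad2, Oasl1, Cmpk2 and Ly6a, share an adjusted p of 0.0499. The first genes past the threshold were Ifi44 (log2 fold change 2.72, adjusted p = 0.0526) and Parp9 (0.75, adjusted p = 0.0561). Leaving out 1 mouse of either genotype left between 3 and 15 called genes, the fewest without wt of experiment 1 and the most without wt of experiment 5. With experiment as a block in the 6 naive libraries alone the count was 285, with 205 higher (1.1% of 18669) and 80 lower (0.429%), and 20 of the 24 were among them.

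**Figure D1:**
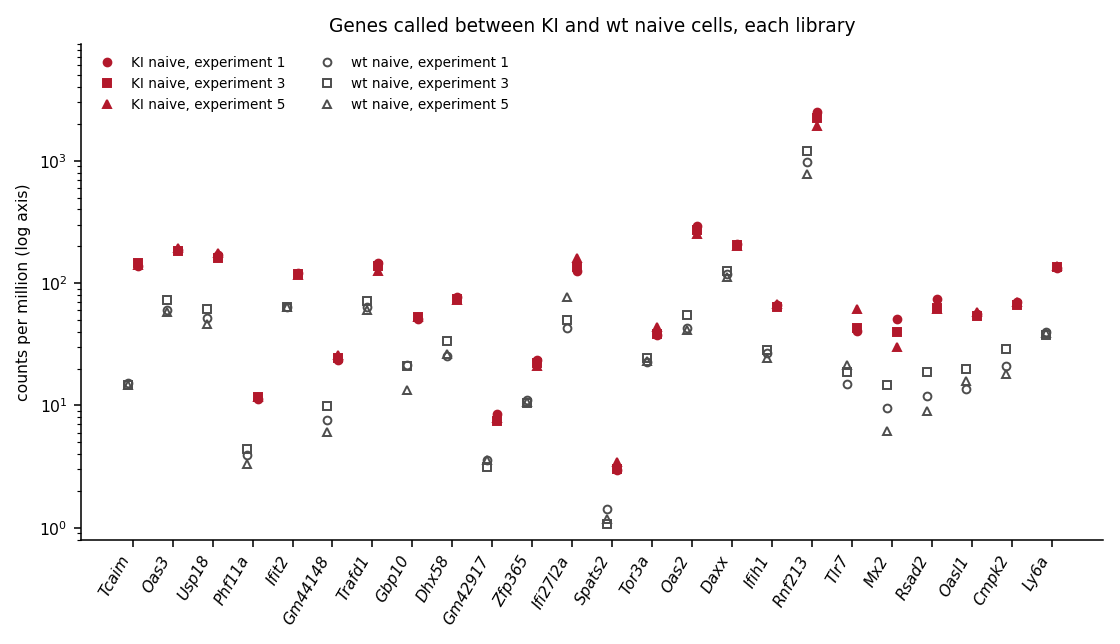
CPM on a log axis for the 24 called genes in each naive library, ordered by p. Filled red symbols are KI and open grey symbols wt, with the shape giving the experiment. In every gene the 3 KI symbols lie above the 3 wt symbols, and Rnf213 is the most counted, at 1905 to 2508 CPM in KI.

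The upstream bases of 4 called genes are shown because interferon response elements usually lie close to the start of transcription. They are the genes other than Tcaim with the smallest p among those with an entry in the RefSeq promoter table (GRCm38.p6). Each line gives the 250 bases before a start, 5′ to 3′ on the strand of the gene. The table holds 2 starts each for Ifit2 and Trafd1, of which 1 is shown. Capitals mark the motif GAAANNGAAA (or TTTCNNTTTC on the other strand).
Oas3: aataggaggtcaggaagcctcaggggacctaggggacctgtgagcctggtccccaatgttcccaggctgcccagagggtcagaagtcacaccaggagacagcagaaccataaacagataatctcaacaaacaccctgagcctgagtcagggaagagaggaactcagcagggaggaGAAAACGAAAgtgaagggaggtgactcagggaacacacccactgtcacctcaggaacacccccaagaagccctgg
Phf11a: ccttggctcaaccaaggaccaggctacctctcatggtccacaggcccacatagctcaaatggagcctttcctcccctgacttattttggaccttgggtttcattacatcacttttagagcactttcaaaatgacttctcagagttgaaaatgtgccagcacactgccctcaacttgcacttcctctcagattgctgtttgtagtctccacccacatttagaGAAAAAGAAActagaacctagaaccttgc
Ifit2: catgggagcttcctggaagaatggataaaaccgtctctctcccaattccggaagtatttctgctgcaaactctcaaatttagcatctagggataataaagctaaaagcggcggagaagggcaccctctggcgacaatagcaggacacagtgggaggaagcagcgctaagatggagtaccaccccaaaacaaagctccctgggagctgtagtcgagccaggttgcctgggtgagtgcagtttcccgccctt
Trafd1: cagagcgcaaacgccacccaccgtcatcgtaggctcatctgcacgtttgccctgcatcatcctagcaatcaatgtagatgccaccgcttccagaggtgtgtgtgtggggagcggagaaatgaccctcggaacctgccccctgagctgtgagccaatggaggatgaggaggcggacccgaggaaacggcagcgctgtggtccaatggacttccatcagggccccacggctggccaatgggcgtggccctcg
These lie at chr5:120777660-120777909 (minus strand), chr14:59297523-59297772 (minus), chr19:34550444-34550693 (plus) and chr5:121385616-121385865 (minus). In Oas3 the motif begins 75 and ends 66 bases before the start, and in Phf11a it begins 29 and ends 20 bases before it. The windows printed for Ifit2 and Trafd1 do not hold these letters.

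Across the set the motif was found in 406 of 12064 tested genes with a promoter in the table (3.37%). Of the called genes other than Tcaim 12 had an entry, and the motif stood in 3 of them (25%), Oas3, Phf11a and Rsad2. Among the interferon-stimulated effectors 33 of 81 promoters held it (40.7%). It stood in 29 of 70 effectors whose KI libraries all lay above the wt libraries and in 4 of 11 whose libraries overlapped. The guanylate-binding proteins, other interferon gamma genes and class II genes held it in 11 of 17. Genes of MHC class I presentation held it in 3 of 21, and effector markers in 1 of 28. A match describes letters only and is not a binding site.

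The oligoadenylate synthetases, enzymes that sense double-stranded RNA and answer it by making short oligoadenylates, had 8 tested members. In all 8 every KI library was above every wt library (6.56% of all tested genes), and 3 were called (0.113% of all were called higher). Oas3 (ENSMUSG00000032661, chromosome 5, 120753098 to 120777661, minus strand) was at 186, 182 and 193 CPM in KI and 60.6, 72.5 and 57.7 in wt, experiments 1, 3 and 5. The groups lay far apart. The KI minus wt differences of log2 CPM were 1.62, 1.32 and 1.74. Oas2 (chromosome 5, 120730333 to 120749853) stood at 294, 272 and 250 CPM against 42.7, 55.0 and 41.5. The groups were separate, for a log2 fold of 2.55 (SE 0.45, edgeR adjusted p = 0.0264). Oasl1, a family member without synthetase activity, was at 55.7, 53.5 and 58.2 CPM in KI and 13.6, 19.8 and 15.8 in wt. Oas1a (log2 fold change 1.52, edgeR adjusted p = 0.132) and Oasl2 (2.02, adjusted p = 1) had similar folds and were not called, whereas the block fit of the 6 naive libraries called all 8. In that block fit 1.1% of all genes were called higher. Members of this family resemble each other, so reads could have been split between them.

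The ISG15 system attaches the ubiquitin-like protein Isg15 to other proteins, with Uba7, Ube2l6 and Herc6 as its enzymes and Usp18 as the protease that removes it. Usp18 also damps signalling from the type I interferon receptor. Usp18 (ENSMUSG00000030107, chromosome 6, 121245906 to 121270917, plus strand) was at 168, 161 and 175 CPM in KI and 52.1, 61.6 and 46.2 in wt. Its log2 fold change was 1.66 (SE 0.18, edgeR adjusted p = 0.000164). Tcaim, Oas3 and Usp18 were the genes that remained called in all 20 alternative fits. Isg15 was at 62.0, 63.03 and 72.9 CPM in KI against 16.5, 22.2 and 18.9 in wt, for a log2 fold of 1.78 (SE 0.42) that edgeR did not call (adjusted p = 0.186). All 5 genes of the system had their KI libraries above their wt libraries (6.56% of all tested genes), from Uba7 (0.48) to Ube2l6 (1.94). The block fit called all 5 (1.1% of all genes in that fit were called higher). Gm44148 (log2 fold change 1.64) is called too, but it overlaps Usp18 on the opposite strand, and the strand setting of the counting is not given in the sources used here.

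Among proteins that act on viral RNA or membranes, the IFIT family had 6 tested members. All had KI above wt in every library (6.56% of all tested genes). Ifit2 (ENSMUSG00000045932, chromosome 19, 34550694 to 34576419) was at 120, 119 and 116 CPM in KI and 63.4, 63.3 and 64.0 in wt. The libraries of each genotype lay close together, and the log2 fold change was 0.90 (SE 0.12, edgeR adjusted p = 0.00159). Ifit3b had the largest fitted fold of all effectors, 2.77 (SE 0.59), with 67.0, 46.6 and 61.2 CPM against 8.05, 9.89 and 7.65, and was not called (edgeR adjusted p = 0.0949). Ifit1 (1.68) and Ifit3 (2.04) likewise had separate groups and no call. Rsad2, known as viperin, an enzyme that makes a chain-terminating nucleotide, was at 74.4, 62.99 and 61.8 CPM in KI and 11.9, 18.8 and 8.96 in wt. Its neighbour on chromosome 12, the nucleotide kinase Cmpk2, was at 70.6, 66.6 and 70.4 CPM against 21.04, 28.9 and 18.2. Mx2, of the Mx GTPase family and annotated as a polymorphic pseudogene, was at 50.9, 40.1 and 30.03 CPM against 9.52, 14.8 and 6.19. Its relative Mx1 had 175, 130 and 103 CPM against 30.8, 41.4 and 20.3, just past the threshold (edgeR log2 fold change 2.14, adjusted p = 0.0561). In each of these genes but Ifit2 the wt library of experiment 3 was the highest of the wt libraries.

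Among 6 nucleic acid sensors of the interferon pathway list 2 were called, both higher (0.113% of all tested genes were called higher). In 5 of the 6 every KI library lay above every wt library (6.56% of all genes). Ifih1, which encodes the double-stranded RNA sensor MDA5 (chromosome 2, 62595798 to 62646255), was at 66.3, 64.0 and 68.1 CPM in KI and 26.6, 28.2 and 24.2 in wt, for a log2 fold of 1.33 (SE 0.25, edgeR adjusted p = 0.0464). Dhx58, whose product LGP2 tunes MDA5 and RIG-I, stands in the effector list and is not among these 6. It was at 76.5, 74.3 and 73.3 CPM against 25.5, 33.9 and 26.3 (log2 fold change 1.39, edgeR adjusted p = 0.00585). Tlr7, an endosomal receptor for single-stranded RNA encoded on chromosome X, was at 40.4, 42.7 and 61.3 CPM against 14.9, 18.9 and 21.4. The female pair of experiment 5 held the highest value in each genotype, and the groups did not overlap. Ddx58, which encodes RIG-I, had 273 to 294 CPM in KI and 178 to 200 in wt, for a log2 fold of 0.58 (SE 0.19) that was not called. Tlr9, a DNA receptor, overlapped between genotypes (log2 fold change -0.08). Trafd1, known as a brake on signalling from such sensors, was at 146, 138 and 125 CPM in KI and 63.9, 70.8 and 60.7 in wt (edgeR log2 fold change 1.07, adjusted p = 0.00196). Gm42917 overlaps Trafd1 on the opposite strand, so its call (log2 fold change 1.21) may share reads with it.

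The other called effectors were of mixed function. Phf11a (chromosome 14, 59276913 to 59297522), of a family of PHD finger genes, was at 11.3, 11.8 and 11.8 CPM in KI and 3.91, 4.39 and 3.33 in wt. In all 4 tested Phf11 genes the fold change was positive, from 0.29 to 1.58, and Phf11d alone overlapped. Daxx, a histone H3.3 chaperone of nuclear bodies, was at 208, 207 and 200 CPM against 119, 126 and 112, for a log2 fold of 0.79 (SE 0.14, edgeR adjusted p = 0.0296). Nuclear body genes Pml (0.76), Sp100 (0.28), Sp110 (0.17) and Sp140 (0.13) had smaller differences and none was called, though none overlapped. Of all tested genes 6.56% had every KI library above every wt library. Ifi27l2a, a small hydrophobic protein, was at 126, 136 and 161 CPM in KI and 42.9, 50.004 and 76.5 in wt, the wt library of experiment 5 being the highest. Tor3a, an endoplasmic reticulum ATPase, had the smallest called fold, 0.77 (SE 0.13), with 38.0 to 43.8 CPM against 22.8 to 24.5. Ly6a, the GPI-anchored surface protein Sca-1, was at 133, 135 and 137 CPM against 39.8, 37.9 and 39.0. Its relative Ly6c2, a surface marker of memory and interferon-exposed CD8+ T cells, was at 434, 477 and 359 CPM against 147, 117 and 121. The Ly6c2 log2 fold change was 1.72 (SE 0.41) and was not called (edgeR adjusted p = 0.207), whereas the block fit of the naive libraries called it.

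Rnf213, a very large ubiquitin ligase and ATPase, was at 2508, 2252 and 1905 CPM in KI and 979, 1202 and 771 in wt (edgeR log2 fold change 1.17, SE 0.22). Zfp365, a zinc finger gene, was at 23.5, 22.4 and 20.8 CPM against 11.02, 10.4 and 10.6. Spats2 was at 3.00, 3.01 and 3.43 CPM against 1.42, 1.08 and 1.17, the lowest counts among the called genes. None of these stands in an interferon list used here. Compared per length, as the authors' FPKM, Ifi27l2a had the highest level of the called genes with a value, 360 in KI and 145 in wt. Next came Rnf213 with 155 and 69.3 FPKM, and Ly6a with 132 and 38.4. Tcaim stood at 53.4 ± 0.853 FPKM in KI and 5.64 ± 0.109 in wt (SD, n = 3).

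Taken as a list, 100 of 103 interferon-stimulated effectors were tested, with 14 called (0.113% of all tested genes were called higher). At an unadjusted p under 0.05, 57 were higher (1.36% of all tested genes) and 0 lower. In 86 of the 100 every KI library lay above every wt library, against 6.56% of all genes, and in 0 every KI library lay below. The list's median log2 fold change was 0.71, beside 0.0058 over all tested genes. Within experiments 1, 3 and 5 the median difference was 0.73, 0.55 and 0.77. In each experiment 91 effectors were higher in KI, beside 18.7% of all tested genes. Experiment 3 gave the smallest of the 3 differences in 67 of the 100 effectors and in 16 of the 23 called genes other than Tcaim. The block fit of the 6 naive libraries called 67 effectors, all higher, where 1.1% of genes were called higher. Their summed level was 19643 to 20813 CPM in KI and 13650 to 14091 in wt. The list was drawn up with earlier results of these libraries known, so its direction is not independent evidence.

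**Figure D2:**
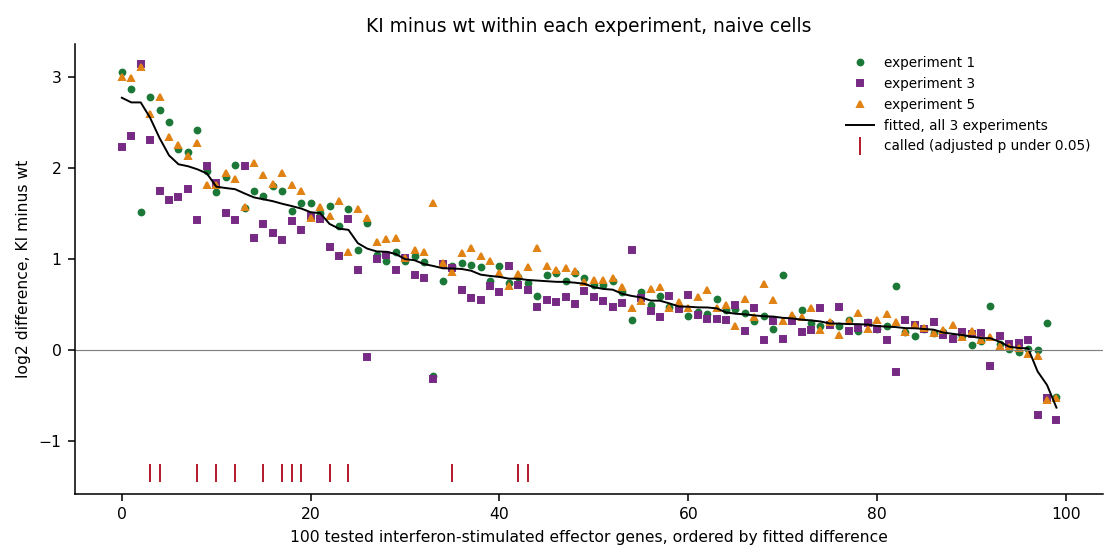
Log2 CPM difference, KI minus wt, within each experiment (symbols) for the 100 tested interferon-stimulated effectors, ordered by the fitted log2 fold change (line). Red ticks mark the 14 called genes. Most points lie above 0 in all 3 experiments, and the squares of experiment 3 tend to lie below the line among the genes with the largest differences.

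Families within the list differed in size of change. For comparison, 6.56% of all tested genes had every KI library above every wt library. The 11 TRIM genes, ubiquitin ligases of antiviral defence, had a median log2 fold change of 0.47 with 10 not overlapping and 0 called. The 10 genes of the PYHIN family of DNA-binding proteins had a median of 0.43, and 6 did not overlap. The 5 PARP genes (median 0.67) all had separate groups, and so did 4 of 5 Schlafen genes, led by Slfn5 at 264 to 314 CPM in KI and 85.8 to 108 in wt (edgeR log2 fold change 1.64, adjusted p = 0.0561). The 3 Ifitm genes, membrane proteins that block viral fusion, all overlapped, with Ifitm1 at -0.63 and Ifitm3 at 0.36, at levels of 11.004 CPM or less. Ifi27 (0.03) and Slfn2 (0.02) also had overlapping groups, at 84.8 to 96.3 and 256 to 391 CPM.

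Upstream of these genes the interferon pathway list had 42 of 50 members tested. The sensors Ifih1 and Tlr7 were the 2 called, both higher (0.113% of all tested genes were called higher). In 16 every KI library lay above every wt library (6.56% of all genes). The list's median log2 fold change was 0.07, and the block fit of the naive libraries called 9, all higher (1.1% of all genes in that fit). Interferon ligands were at or near 0: Ifnb1 had 0 counts in all 6 naive libraries, and Ifna2 had 2 counts over the 6. Ifna1, Ifna4, Ifne, Ifnl2 and Ifnl3 had 0 counts in these libraries, and Ifnk reached 14. Ifng, the type II interferon, was at 3.57, 6.84 and 4.602 CPM in KI and 2.71, 9.66 and 5.86 in wt. Its groups overlapped, for a log2 fold of -0.28 (SE 0.71). These counts are of the isolated T cell preparation and do not measure interferon made elsewhere in the animal.

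The receptor genes had nearly the same level in both genotypes. Ifnar1 was at 159, 162 and 149 CPM in KI and 162, 163 and 147 in wt, for a log2 fold of -0.01 (SE 0.21). Ifnar2 was at 79.0, 80.3 and 79.6 CPM against 76.6, 70.4 and 76.2 (0.10, SE 0.18). Neither was called, and the kinases Jak1 (0.10), Jak2 (0.07) and Tyk2 (0.01) were not called either.

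The signal factors divided. Irf7, which amplifies interferon responses and is itself interferon-stimulated, was at 309, 347 and 330 CPM in KI and 91.0, 105 and 96.6 in wt. Its groups lay far apart, with differences of 1.76, 1.72 and 1.77 in the 3 experiments. The edgeR log2 fold change of 1.75 (SE 0.48) was nonetheless not called in the 22-library fit (adjusted p = 0.598). It was called in the block fit of the 6 naive libraries (adjusted p = 1.99e-08). Stat2 was at 149, 141 and 131 CPM against 83.7, 97.6 and 78.5, a log2 fold of 0.70 (SE 0.17, edgeR adjusted p = 0.199; 0.000821 in that block fit). Irf9 stood at 162 to 177 CPM against 136 to 150 (0.23, SE 0.20). Irf1, Irf3, Irf5 and Irf8 had overlapping groups. Of the inhibitors, Socs3 had separate groups (186 to 228 CPM in KI, 132 to 162 in wt, 0.52), whereas Socs1 overlapped. The RNA-editing enzyme Adar was at 322 to 344 CPM in KI and 218 to 252 in wt (0.50, not called).

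**Figure D3:**
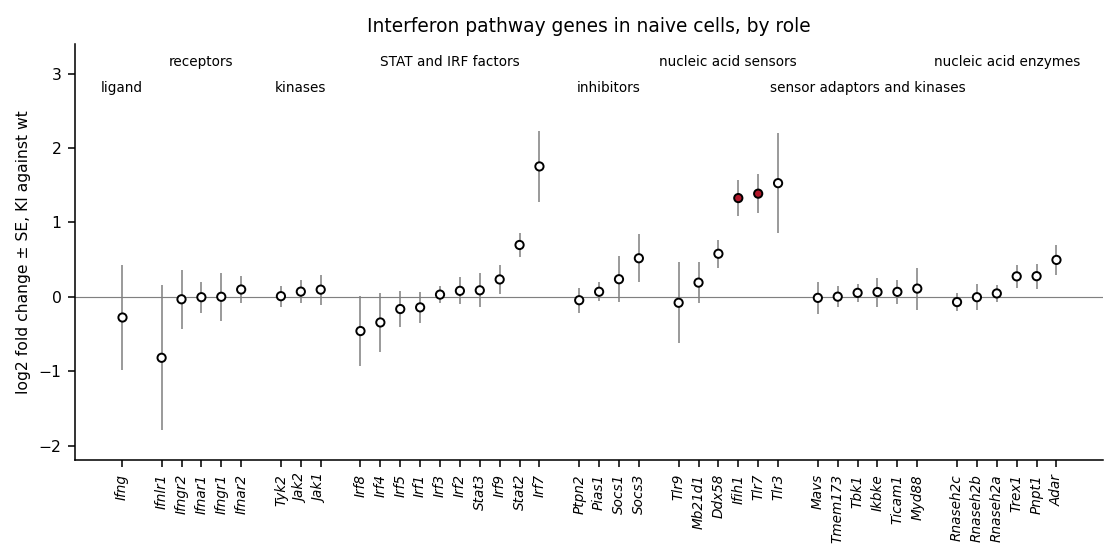
Log2 fold change, KI against wt, in naive cells with its SE for tested interferon pathway genes, grouped by role. Filled symbols are called. Receptors and kinases lie near 0, apart from Ifnlr1 which had under 1 CPM, and Irf7, Tlr3, Tlr7 and Ifih1 lie highest.

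Genes known mainly as targets of interferon gamma gave a mixed picture. Of 28 tested, 1 was called, higher (0.113% of all genes were called higher). In 13 every KI library lay above every wt library (6.56% of all genes). The 1 with the reverse order was near the 4.04% of all genes. The block fit of the naive libraries called 5, all higher (1.1% of all genes in that fit). The 11 guanylate-binding proteins, GTPases that attack vacuoles of intracellular pathogens, had a median log2 fold change of 0.33, and 9 did not overlap in the higher direction. Gbp10 (chromosome 5, 105215699 to 105239533) was at 51.0, 53.0 and 53.3 CPM in KI and 21.4, 21.1 and 13.5 in wt (edgeR log2 fold change 1.49, adjusted p = 0.00585). Gbp10 and Gbp6 (0.77) overlap Gm43302 on the same strand, so their counts are uncertain. The 7 immunity-related GTPases had a median of 0.26, with Iigp1 at 1.02 and 2 of 7 not overlapping.

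The 7 class II genes, by contrast, all had negative values, from -0.70 to -0.13, with 0 called and overlapping groups. H2-Aa was at 104, 104 and 191 CPM in KI and 138, 216 and 268 in wt, lower in KI in each pair. B cell markers, listed above, moved the same way, and their part in the class II values was not tested.

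MHC class I presentation had 26 tested genes with 0 called and 7 not overlapping in the higher direction (6.56% of all genes did so). H2-T24, a nonclassical class I gene, was at 98.5, 103 and 123 CPM in KI and 51.9, 52.7 and 51.1 in wt, for a log2 fold of 1.06 (SE 0.24, edgeR adjusted p = 0.118). The block fit of the naive libraries called H2-T24 and H2-T22 higher, at 1.04 and 0.32. The classical genes H2-K1 (0.07) and H2-D1 (0.04) and B2m (0.01) had overlapping groups, as did the immunoproteasome subunits Psmb8 and Psmb9 (both 0.08).

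**Figure D4:**
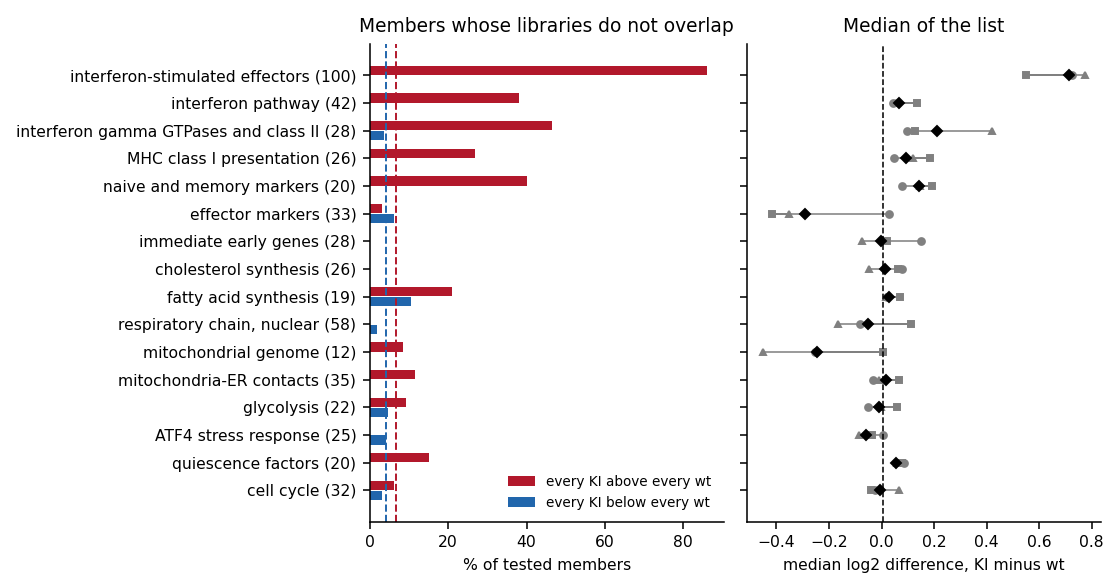
Left, share of tested members of each list whose 3 KI libraries all lie above (red) or below (blue) the 3 wt libraries, with the same shares over all genes as dashed lines (6.56% and 4.04%). Right, median log2 difference of each list, fitted (diamonds) and within each experiment (grey), with the median of all genes dashed. The interferon-stimulated effectors lead both panels, with 86 of 100 members above and a median of 0.71.

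On the lower side no gene was called in the 22-library fit. The lower gene with the smallest p was Gt(ROSA)26Sor (chromosome 6, 113067428 to 113077333, minus strand), the noncoding transcript of a locus much used for inserting transgenes. It was at 11.9, 11.1 and 13.3 CPM in KI and 19.6, 18.9 and 20.9 in wt. All 3 KI libraries lay below all 3 wt libraries, and the differences within experiments were -0.71, -0.77 and -0.65. The log2 fold change was -0.71 (SE 0.14, edgeR adjusted p = 0.0561). With experiment as a block it was called, with an adjusted p of 0.0101 in all 22 libraries and 0.000776 in the 6 naive ones. DESeq2 called it too (adjusted p = 0.000486). In edgeR no fit that left out 1 mouse called it (adjusted p from 0.104 to 0.656). Nor was it called with no filter (0.128), library size scaling (0.0659), DESeq2 size factors (0.0635) or without robust estimation (0.0586). The remaining alternatives that tested it called it. The KO-labelled libraries, of the other line, had 17.2 and 20.2 CPM. Its neighbours Thumpd3, which overlaps it on the opposite strand, and Setd5, both picked after their values were seen, had log2 fold changes of -0.03 and 0.01. The other 4 lower genes with the smallest p, Rab42, Krt10, Npas4 and Gm42759, were at 3.56 CPM or less in every naive library.

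When experiment was a block in the 6 naive libraries, edgeR called 80 genes lower, and these were chosen for description after their values were seen. They included genes of B and plasma cells, with 6 immunoglobulin genes, Mzb1 (log2 fold change -0.79) and Blnk (-0.69). They also included the neutrophil genes S100a8 and S100a9 (both -1.76). S100a9 was at 4.30, 0.954 and 7.42 CPM in KI and 15.3, 4.45 and 18.7 in wt, lower in KI in each pair while the groups overlapped. Some others were picked as examples of genes that activated or memory CD8+ T cells express, and such genes did not all go the same way. Cd44, the adhesion receptor that marks memory cells, was at 12.9, 18.2 and 21.1 CPM against 16.3, 28.4 and 31.2 (paired log2 fold change -0.53, block fit adjusted p = 0.00808). Id2, Itgae, Il2ra, Anxa1 and Vim were called lower with it, at -0.33, -0.34, -0.68, -0.90 and -0.40. Of the listed effector markers the same fit called 3 lower and 1, Ly6c2, higher. Of the listed naive and memory markers it called 2 higher, Eomes among them, and 0 lower. Of the 80, 30 had every KI library below every wt library (4.04% of all genes in the 22-library fit). Of the 205 higher genes, 190 had every KI library above every wt library (6.56%). The genes were called on these same libraries, so both counts are a description. Markers of B cells and neutrophils moved with these calls, and so did those of some other cells. The 3 CD4 T cell markers were all lower in KI in each experiment (15.1% of all genes), with a median log2 fold change of -0.55. Their summed level was 29.0 to 46.9 CPM in KI and 34.02 to 71.5 in wt. The 6 classical dendritic cell markers all had negative values (median -0.40, 115 to 207 CPM against 149 to 289). The 6 NK cell markers had a median of -0.47, with sums of 95.4 to 139 CPM against 69.5 to 171. Their median difference was 0.39, -0.64 and -0.76 within experiments 1, 3 and 5, so experiment 1 went the other way. The part of these cells in the calls was not tested.

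Of 20 naive and memory markers 0 were called by edgeR, 8 did not overlap in the higher direction (6.56% of all genes) and the median log2 fold change was 0.14. Klf2, a factor that keeps naive T cells quiescent and recirculating, was at 545, 611 and 522 CPM in KI and 404, 463 and 454 in wt (0.34, SE 0.28, not called). Lef1, a partner of Tcf7, was at 475, 557 and 562 CPM against 443, 414 and 424 (0.31). The block fit of the naive libraries called Klf2 and Eomes higher, at 0.33 and 0.37. Ccr7, Il7r and Tcf7 overlapped. The 33 effector markers had a median of -0.29 with 0 called, and 12 were lower in KI in each experiment (15.1% of all genes). Their median difference was 0.03, -0.42 and -0.35 in experiments 1, 3 and 5, and the fitted median was -0.53 without wt of experiment 1 and -0.09 without wt of experiment 3. The block fit called 1 of them higher (Ly6c2) and 3 lower (Cd44, Id2 and Il2ra). The cytotoxic genes Gzma, Gzmb and Prf1 overlapped between genotypes.

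Metabolic and organelle lists, which bear on the contacts named in the series title, held 0 called genes in naive cells. Mitochondria-ER contact genes (35 tested) had a median log2 fold change of 0.02, with 4 of the 35 not overlapping in the higher direction and 0 in the lower, beside 6.56% and 4.04% of all genes. The 2 with the smallest p were Osbpl5 (0.30) and Itpr1, a calcium channel of the endoplasmic reticulum (0.27). Cholesterol synthesis (26 tested, median 0.01), fatty acid synthesis (19, 0.03), glycolysis (22, -0.01), the nuclear-encoded respiratory chain (58, -0.05) and the mitochondrial genome (12, -0.25) likewise had 0 called in either direction. In the mitochondrial genome list 5 of 12 genes were lower in KI in each experiment (15.1% of all genes) and 1 was higher (18.7%). The groups overlapped for all but mt-Nd3, which had under 0.1 CPM. The median of that list was -0.01 without wt of experiment 5 and -0.39 without wt of experiment 3, and within experiment 3 it was 0.0055. Immediate early genes (28), the ATF4 stress response (25), quiescence factors (20) and cell cycle genes (32) also had 0 called, with medians between -0.06 and 0.05. In each of these lists edgeR gave at most 1 gene at an unadjusted p under 0.05. In the block fit of the naive libraries Itpr1 (0.26) was called higher and Nfkbia, an inhibitor of NF-kB, lower (-0.26).

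The naive differences were then followed over activation. At 24 h Tcaim was the 1 gene that passed edgeR's threshold (0.00472% of those tested). Of the 23 other genes called in naive cells 21 still had a positive log2 fold change at 24 h, with 0 called. Oas2 had 2.49 (SE 0.46, adjusted p = 0.161) and Rsad2 2.01, close to their naive values, whereas Zfp365 (-0.41) and Spats2 (-0.22) were negative. The levels themselves had dropped. Mean Oas2 went from 272 to 14.7 CPM in KI and from 46.4 to 2.61 in wt. Mean Rsad2 went from 66.4 to 1.97 CPM in KI and from 13.2 to 0.486 in wt. Over the 24, 14 had KI above wt in every library at 24 h, a pattern met by 10.8% of all genes. The effector list had a median of 0.47 at 24 h with 48 of 100 not overlapping and 0 called. In no gene was the KI difference at 24 h called as different from that in naive cells (0%).

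At 48 h, 11 of the 23 had a positive and 12 a negative log2 fold change, and 884 genes were called between KI and wt in all (4.17%). Ifit2 (0.67, edgeR adjusted p = 0.0036) and Oas2 (1.71, adjusted p = 0.042) were higher in KI with Tcaim. Oas3 (-0.66, adjusted p = 0.0239) and Dhx58 (-0.83, adjusted p = 0.028) were lower. Oas3 was at 187 ± 5.84 CPM in naive KI cells and 24.1 ± 2.49 at 48 h, and in wt at 63.6 ± 7.84 and 38.2 ± 8.83 (SD, n = 3). Of the 24 genes 5 had KI above wt in every library at 48 h (10.8% of all genes) and 6 the reverse (9.78%). The difference between the 48 h and the naive effect was called for 0.387% of all genes, and among the 24 for 13, Tcaim with 1.33 and 12 others with values from -2.90 (Mx2) to -0.94 (Daxx). These genes were chosen for a high naive value, so the count describes them and tests nothing. That test also treats the libraries of 1 mouse at different times as independent.

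**Figure D5:**
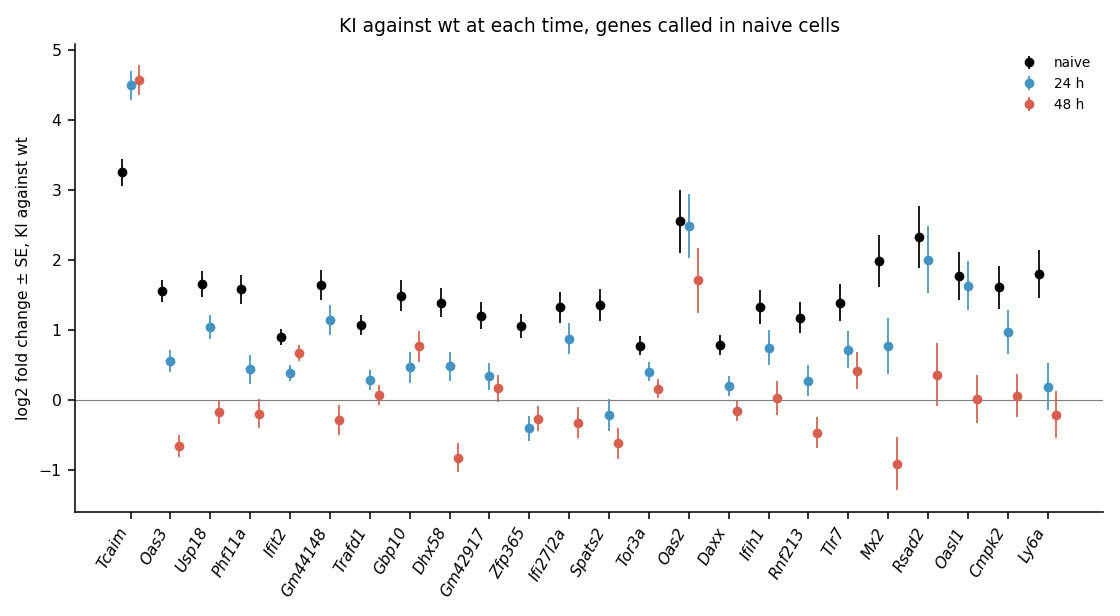
Log2 fold change, KI against wt, with its SE in naive cells (black), at 24 h (blue) and at 48 h (red) for the 24 genes called in naive cells. Tcaim rises from 3.25 to 4.58, Ifit2 and Oas2 stay above 0 at each time, and Oas3 and Dhx58 lie below 0 at 48 h.

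Of the 100 effectors 16 were called higher at 48 h (2.28% of all tested genes) and 4 lower (1.89%), with a median of 0.32. In 30 the groups did not overlap in the higher direction (10.8% of all genes), and the 10 that did so in the lower direction were near the 9.78% of all genes. Genes with small naive differences were among those called higher, such as Ifi208 (0.29 in naive cells, 2.26 at 48 h) and Slfn1 (0.58, then 1.55). Bst2 (1.001, then -1.003) and Trim25 (0.54, then -0.47) were called lower. Among guanylate-binding proteins 7 of 11 were called higher at 48 h (2.28% of all genes), with a median of 1.18.

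Naive cells of the KO-labelled line shared the wt libraries as their control. Both KO-labelled mice were female and 2 of the 3 wt mice male, so sex is not balanced in it. In that comparison edgeR called 5 genes (0.0236%), and 0 of the 24. Tcaim was at 14.9 and 19.6 CPM in the KO-labelled libraries of experiments 1 and 5, beside 15.2 and 14.7 in wt. So the count over the whole gene was not lower in the libraries labelled KO, and the labels do not state which part of the gene is deleted. For the 23 other genes the KO-labelled log2 fold changes ranged from -0.53 (Spats2) to 0.46 (Ifi27l2a). Oas3 had -0.07, Usp18 -0.43 and Ifit2 0.00, beside 1.56, 1.66 and 0.90 in KI. Ly6a was at 67.1 and 17.8 CPM in the KO-labelled libraries, 1 above and 1 below the wt range of 37.9 to 39.8.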

How the data were processed

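Poly(A) RNA of CD8+ T cells (spleen and lymph nodes, other cells depleted magnetically) was sequenced in pairs of reads from stranded libraries, per the labels' protocols. The authors deposited raw counts per gene and FPKM values, which are scaled for gene length and depth. Per the submitters' processing notes the tools included bcl2fastq 2.20.0, TopHat2 2.1.0, Bowtie2 2.2.5, SAMtools 0.1.19, featureCounts and DESeq2 1.6.3, with builds GRCm38 and mm10. The strand setting of the counting is not given in the sources used here. The FPKM were used for levels between genes only.

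The deposited counts were tested with edgeR 4.0.16 (R 4.3.3, limma 3.58.1): TMM scaling, filterByExpr (minimum count 10, total 15), robust quasi-likelihood fit of 22 libraries in 8 group means with 14 residual degrees of freedom, and Benjamini-Hochberg adjustment over 21183 genes. Differences within an experiment are of log2 CPM with a prior count of 2. Gene names came from the files for 14321 tested genes and from the annotation for 6713, and 149 had none. The scripts were tested on simulated data. Alternatives included DESeq2 1.42.0, other scalings, no filter, leaving out 1 mouse, and experiment as a block.

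The labels give KI and wt libraries a shared experiment number. Deviations from the group means of naive libraries of the same experiment correlated at 0.448, 0.455 and 0.668 over 13070 genes, and those of different experiments at -0.479 to 0.152, so the numbers were taken to pair the samples. Each library is of 1 mouse. The 3 times of a KI or wt mouse, and both times of a KO-labelled mouse, come from 1 of 8 mice, and the fit of all libraries treats them as independent. In the 6 pairs of naive replicates within a genotype none agreed within sampling noise.

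Named are all called genes if 30 or fewer, the 5 lower genes with the smallest p, in each of 16 pathway lists the called members and the 2 with the smallest p, Tcaim, and Ifnb1, Ifng, Ifnar1, Ifnar2, Stat2, Irf7 and Irf9. Some genes that the rule or the lists hold are not reported here. Other genes named as examples were chosen after their values were seen. The comparison and the lists were chosen with earlier results of these data known.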

Additional observations from a re-analysis of the deposited data

Results flagged for a closer look

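The KI effect at 48 h differed from that in naive cells, by edgeR's test of the difference itself (adjusted p under 0.05), for 14 of the named genes. All were named for their naive values, which form one side of that difference, so the values are a description. Libraries of 1 mouse at both times were treated as independent. The difference of log2 fold changes was positive for Tcaim, at 1.33. It was negative for the other 13. Among antiviral effectors it was -2.22 for Oas3, -1.84 for Usp18, -1.78 for Phf11a, -1.65 for Ifi27l2a, -0.94 for Daxx and -2.90 for Mx2. For the sensor gene Dhx58 it was -2.22 and for Trafd1 -1.002. Gm44148, which overlaps Usp18, had -1.93. Genes in no interferon list had -1.33 (Zfp365), -1.98 (Spats2) and -1.65 (Rnf213). The signal factor Stat2 had -1.19.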

How the results depend on the processing

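The count of 24 called genes moved with the fit. It was 15 with library size scaling, 58 with DESeq2, 83 with the 6 naive libraries alone and 285 with these and experiment as a replicate block. The replicate block in all 22 libraries gave 25. Alternatives chosen after seeing the data gave 49 with the newer quasi-likelihood method, 49 without the KO-labelled 48 h library of experiment 1 and 48 with the 18 libraries of the KI line. Leaving out 1 mouse gave 3 to 15. The cause was not tested. Tcaim, Oas3 and Usp18 were called in all 20 alternatives, and none of the 24 genes changed sign. The medians of 7 lists with reported values near 0 did change sign in some alternatives, within -0.11 to 0.10: immediate early genes, cholesterol and fatty acid synthesis, nuclear respiratory chain, mitochondria-ER contacts, glycolysis and cell cycle. With 3 mice per group and 14 shared residual degrees of freedom, genes near an adjusted p of 0.05 are the least settled.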
